A study of Mus musculus with 4 samples.

Results

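The genes described here encode the machinery that repairs damaged DNA. They were 55 mouse genes listed by symbol and sorted by the repair pathway they serve, and they were found on the array through the gene symbols of the platform's annotation. A gene was tested where at least 3 of the 4 arrays held a value, which kept 36 of the 55, among 8384 genes tested and 13410 named on the array. Gene expression was measured in whole lungs of 4 A/J mice treated with bleomycin, a drug that cuts DNA, and A/J is an inbred laboratory strain. RNA of each mouse was amplified and hybridised on its own 2-colour array against 1 pooled sample, made likewise from the lungs of control A/J animals, so the 4 arrays form 1 group (n = 4 mice) and the pool is the only control. Dose, route, time after treatment, age and the number of mice in the pool were not stated in any source used here.

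Each value is the log of a ratio, treated lung and pool being its sides, centred on the median of its array and read as log2. The base of the logarithm and the RNA on top of the ratio are not stated. By the order of the titles the treated mouse would be on top, but this is not settled, so genes are given by their side of 0. With the pool on top, every sign would turn and sizes and p-values would stay. Of 17280 spots, 12136, 11373, 9427 and 10282 held a value for mice 1, 2, 3 and 4. The brightness of the spots was not used here, so the levels behind a ratio are unknown. In whole lung, fewer cells that express a gene and less of its RNA per cell cannot be told apart.

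Cells repair DNA along several routes that share parts. Double-strand breaks are sensed by the Mre11, Rad50 and Nbn complex and the kinase Atm, and are mended by end joining or by homologous recombination. Nucleotide excision repair cuts out a short stretch around a bulky lesion, base excision repair removes a single damaged base and seals the nick, and mismatch repair corrects errors of copying. Bleomycin makes single-strand and double-strand breaks and damaged sugar ends, which draw on the first and the third of these routes.

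Of the 36 tested repair genes, 5 lay above 0 and 3 below 0 past the test (limma, Benjamini-Hochberg adjusted p of at most 0.05 over all 8384 genes). Above 0 were Top1 and Rad21, the farthest of all tested members on that side, Rad9a, Parp2 and Ercc3. Below 0 were Ddb1, the farthest on that side, Ogg1 and Rpa1. The 8 genes are 22.2% of the tested members, beside 12.5% of all genes tested, and by side the share over all genes was 7.69% above and 4.81% below 0. By route they were 2 of 6 tested genes in nucleotide excision, 2 of 9 in base excision, 0 of 6 in double-strand break and 0 of 3 in mismatch repair. Top1, Rad21, Rad9a and Rpa1 belong to none of these routes. With so few genes per route, these counts show no difference between routes. At an unadjusted limma p under 0.05 there were 14 of the 36 (38.9%), beside 31.8% of all genes. Values had 1 sign in every mouse measured for 19 of the 36 members (52.8%), beside 46.7% of all genes, and 0 members had a mean beyond 1 in size. Most members differed little from the pool: the median size of a member's mean was 0.13, beside 0.16 over all genes.

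**Figure D1:**
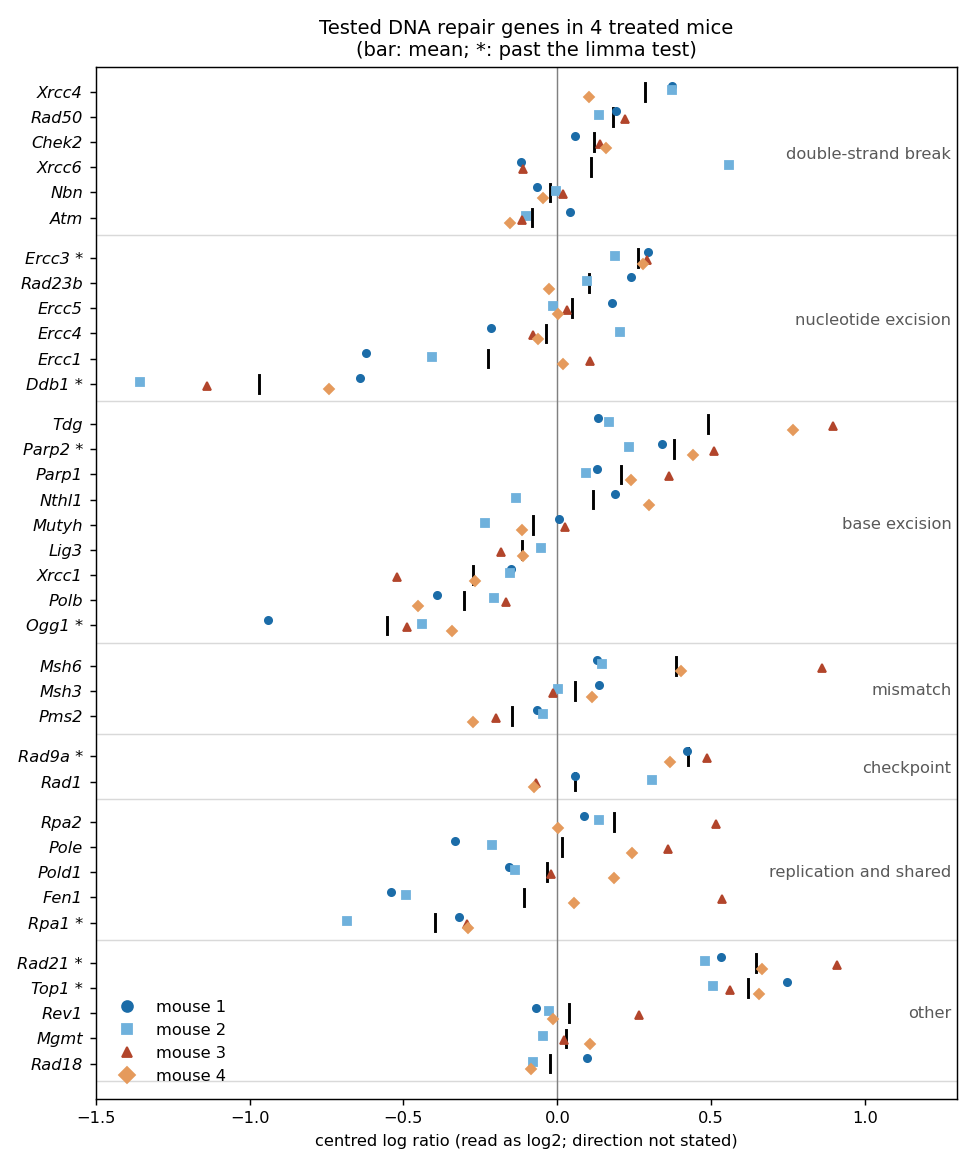
Centred log ratio (horizontal axis, read as log2) of each of the 36 tested DNA repair genes (rows, grouped by pathway) in the 4 mice (symbols), with the mean as a black bar and an asterisk where the limma test was passed. Ddb1 lies below 0 in all 4 mice, Top1 and Rad21 lie above 0 in all 4, and most other genes straddle 0 or lie near it.

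The 8 calls were refitted with 3 mice, when 3.78%, 6.83%, 3.53% and 3.97% of all genes passed without mouse 1, 2, 3 and 4. With 4 mice 12.5% passed, so a call lost with 3 mice does not show that it rests on 1 mouse. Top1 passed whichever mouse was left out (limma adjusted p from 0.0254 to 0.0443). Ddb1 was lost without mouse 3 only (adjusted p from 0.0322 to 0.0534 over the 4 limma fits), and Rad21 without mouse 4 only (from 0.0326 to 0.0582). Parp2, Ogg1, Rpa1 and Ercc3 were lost in every such limma fit, at adjusted p from 0.0501 to 0.148. Rad9a passed without mouse 2, where it has no value (limma adjusted p = 0.0486), and was lost in the other fits at up to 0.122. Arrays were most alike within the pair of mice 1 and 2 and within the pair of mice 3 and 4. No label gives these pairs, which were read from the same values that are tested here. When the pair was taken as a random block, Top1, Rad21 and Ddb1 passed limma (adjusted p = 0.0255, 0.0315 and 0.0407) and the other 5 did not (from 0.0636 to 0.105), beside 4.79% of all genes. With a robust and trended prior in limma, 0 of the 36 passed, beside 1.31% of all genes.

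**Figure D2:**
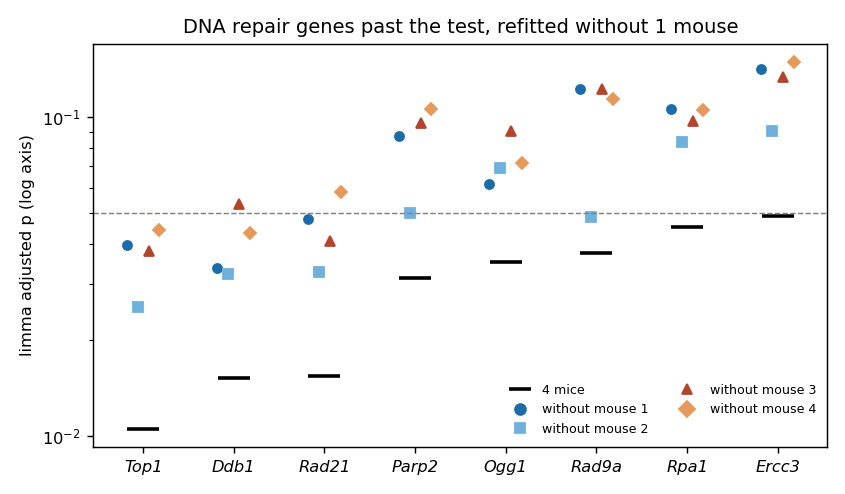
Limma adjusted p (vertical log axis) of the 8 members past the test with all 4 mice (black bar) and without each mouse (symbols), with the threshold of 0.05 dashed. The 4 fits without a mouse lie under the line for Top1 alone.

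Top1 encodes DNA topoisomerase I, which relieves twist in DNA by nicking and resealing a strand. Its values were 0.75, 0.51, 0.56 and 0.66 in mice 1 to 4, with a mean of 0.62 ± 0.11 (SD, n = 4; limma adjusted p = 0.0106), a 1.53-fold difference if the base is 2. The means of the 4 mice lay close together, though they do not rest on the same spots. Top1 was carried by 17 spots, of which 16 held at least 1 value, so this gene shows how far spots of 1 gene differ on an array. Spot values ran from 0.40 to 1.18 in mouse 1, 0.23 to 0.85 in mouse 2, 0.39 to 0.87 in mouse 3 and 0.14 to 0.91 in mouse 4. All 51 spot values were above 0, and the SD between spots was between 0.15 and 0.25 in each mouse. The SD of 0.11 between the mice is not of the same kind. It is over means of 16, 15, 10 and 10 spots in mice 1 to 4, and averaging alone narrows it. Of the other tested members, 32 rest on 1 spot with values, where this spread between spots cannot be averaged out.

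**Figure D3:**
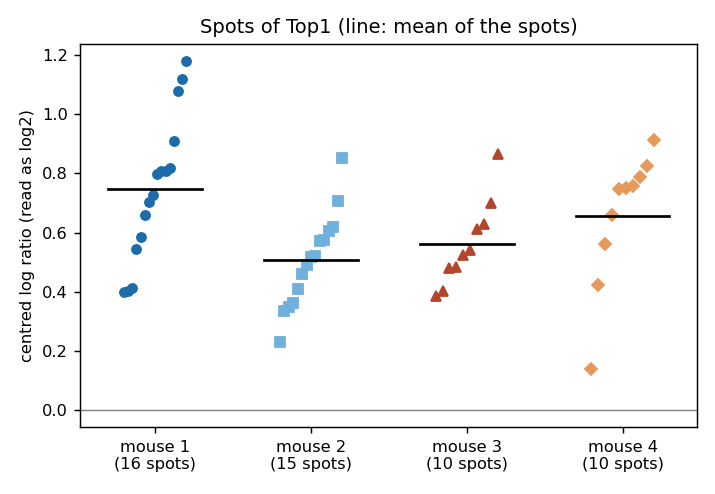
Centred log ratio (vertical axis, read as log2) of every Top1 spot with a value, by mouse, with the mean of the spots as a line. All spots lie above 0, from 0.14 to 1.18. The spots of 1 mouse differ more than the 4 means do, each of which averages 10 to 16 spots.

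Rad21, a ring subunit of cohesin, which holds sister chromatids together and aids the repair of breaks from the sister copy, had values of 0.53, 0.48, 0.91 and 0.66. The mean was 0.65 ± 0.19 (SD, n = 4; limma adjusted p = 0.0155), a 1.57-fold difference if the base is 2. Mouse 3 was the highest and mouse 2 the lowest, and none came near 0.

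To show the start regions of genes on both sides, the promoters of the 2 members with the smallest p above 0 and the 2 below 0 that have an entry in the RefSeq-derived table (build GRCm38.p6) are printed here, 5′ to 3′ on the gene's strand. Each holds 250 bases before and 50 after the start, all 4 on the + strand. They are Top1 at chr2:160645647-160645946, Parp2 at chr14:50807666-50807965, Ddb1 at chr19:10605347-10605646 and Ogg1 at chr6:113326726-113327025. Capitals mark GGGCGG, the core of an Sp1 site, and CCAAT, each on either strand.
Top1: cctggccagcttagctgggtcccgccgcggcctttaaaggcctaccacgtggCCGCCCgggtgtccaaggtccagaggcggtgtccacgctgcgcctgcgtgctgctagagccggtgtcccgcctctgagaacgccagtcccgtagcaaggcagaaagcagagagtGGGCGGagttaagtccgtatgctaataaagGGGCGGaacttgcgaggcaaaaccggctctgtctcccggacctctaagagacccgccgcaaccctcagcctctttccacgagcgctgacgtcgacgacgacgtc
Parp2: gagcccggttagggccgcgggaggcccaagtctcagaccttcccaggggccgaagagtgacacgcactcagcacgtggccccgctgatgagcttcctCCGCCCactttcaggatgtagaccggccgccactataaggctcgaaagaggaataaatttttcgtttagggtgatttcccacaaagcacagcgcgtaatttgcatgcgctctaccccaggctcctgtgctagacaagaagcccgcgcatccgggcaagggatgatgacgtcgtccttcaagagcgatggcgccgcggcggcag
Ddb1: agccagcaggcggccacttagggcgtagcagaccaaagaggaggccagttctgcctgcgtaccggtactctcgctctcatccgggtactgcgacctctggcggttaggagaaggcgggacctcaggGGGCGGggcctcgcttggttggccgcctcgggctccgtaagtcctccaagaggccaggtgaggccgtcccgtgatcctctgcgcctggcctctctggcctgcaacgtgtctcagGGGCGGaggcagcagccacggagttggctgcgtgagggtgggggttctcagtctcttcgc
Ogg1: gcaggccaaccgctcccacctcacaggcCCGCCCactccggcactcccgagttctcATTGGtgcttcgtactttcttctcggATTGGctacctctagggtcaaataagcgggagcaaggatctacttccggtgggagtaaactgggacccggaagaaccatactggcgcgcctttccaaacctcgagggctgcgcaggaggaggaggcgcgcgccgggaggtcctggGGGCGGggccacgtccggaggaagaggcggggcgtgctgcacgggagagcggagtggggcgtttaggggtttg

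The 4 starts shown had 64.0%, 60.0%, 66.7% and 64.7% G or C for Top1, Parp2, Ddb1 and Ogg1 and 29, 25, 22 and 25 CpG pairs. Medians were 59.3% and 18 pairs over the promoters of genes tested, and 62% and 25 pairs over those of tested members. GGGCGG occurs 3 times in Top1, once in Parp2 and 2 times each in Ddb1 and Ogg1, and CCAAT only in Ogg1 of these 4, at 2 places. Promoters were listed for 29 of the 36 tested members. GGGCGG was found for 20 of these 29 genes, beside 35.7% of all 32851 promoters of this length and 56.1% of the 8525 promoters of genes tested. CCAAT was found for 15 of the 29, beside 37.4% of all promoters and 37.7% of those of genes tested. The E2F site, searched as TTTCGCGC or TTTGGCGC on both strands, was found for Msh3 and Nthl1 alone among the 29 (0.813% of all promoters and 1.37% of those of genes tested), and the p53 decamer for Fen1 alone (8.36% and 6.96%). A gene can have more than 1 promoter in the table. Members were counted by gene, with a match in any of their 34 promoters, whereas the shares beside them are by promoter. This can raise the member counts, so the shares are not of the same kind. A match in these letters is no evidence of binding.

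Double-strand break repair had 15 listed genes, of which 6 were tested and 0 passed limma, with 1 at an unadjusted p under 0.05. Their means lay between -0.08 and 0.28. Atm, the kinase that signals a break, had values of 0.04, -0.10, -0.12 and -0.15 (mean -0.08 ± 0.08, SD, n = 4; limma adjusted p = 0.437). These average 2 spots that read -0.26 and 0.03 in mouse 3. The spot with 4 values had a mean of -0.05. The 95% interval of the averaged Atm mean ran from -0.25 to 0.08 in the limma fit. This interval reflects only how the 4 treated mice varied around the shared pool. How far control animals differ from each other does not enter it, so it sets no limit on a difference between treated and control mice. Nbn, a part of the break sensor, lay within 0.07 of 0 in every mouse (-0.07, -0.01, 0.02 and -0.05), with a 95% limma interval from -0.18 to 0.13. Chek2, a kinase downstream of Atm, had 0.06, 0.14 and 0.16 in mice 1, 3 and 4 (limma adjusted p = 0.363).

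Rad50, the partner of Nbn, was carried by 2 spots that disagreed. One spot read 0.70, 0.49 and 0.22 in mice 1 to 3, and the other -0.32 and -0.22 in mice 1 and 2. The averaged mean of 0.18 ± 0.04 (SD, n = 3; limma adjusted p = 0.187) therefore hides a difference between spots wider than that between mice. In end joining, Xrcc4, the scaffold of the ligase, had 0.37, 0.37 and 0.10 in mice 1, 2 and 4 (mean 0.28 ± 0.16, SD, n = 3; limma adjusted p = 0.123). Xrcc6, which encodes the Ku70 subunit that binds broken ends, had -0.12, 0.56 and -0.11 in mice 1 to 3 and so rested on mouse 2 for its positive mean of 0.11. Xrcc5, the Ku80 subunit, had values on 2 arrays, -0.33 and -0.21 in mice 2 and 3, and was not tested.

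The variant histone of break foci is listed under its older symbol H2afx but named H2ax by the platform, so it was not matched by symbol. Its values were -0.61, -0.91, -0.39 and -0.14 (mean -0.51 ± 0.33, SD, n = 4), below 0 in all 4 mice and just short of the test (limma adjusted p = 0.0573). Counted as a member, a choice made after seeing the data, it left the counts at 5 above and 3 below 0 and the pathway median at 0.11. For homologous recombination 0 of 4 listed genes were tested. Brca1 had -0.57 and -0.67 in mice 1 and 2 and no value in mice 3 and 4, Brca2 and Rad52 had spots without values, and no spot carried the symbol Xrcc2. Mre11a, the nuclease of the break sensor, had 1 value, -0.19 in mouse 1. Prkdc, the kinase of end joining, had 0 values, and no spot carried the symbol Lig4.

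Nucleotide excision repair had 8 listed genes and 6 tested, 1 past limma on each side of 0. Ddb1, the adaptor that joins the damage sensor to the Cul4 ubiquitin ligase, had values of -0.64, -1.36, -1.14 and -0.74. Its mean of -0.97 ± 0.34 (SD, n = 4; limma adjusted p = 0.0152) is a 1.96-fold difference if the base is 2, and mouse 2 lay farthest from 0. Ercc3, a helicase of the factor TFIIH that opens DNA at the lesion and at promoters, had 0.29, 0.19, 0.29 and 0.28 (mean 0.26 ± 0.05, SD, n = 4; limma adjusted p = 0.0491). This is a small difference, 1.20-fold if the base is 2, that passed because the mice lay close together.

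The 2 nucleases that cut on either side of the lesion did not differ from the pool past the test. Ercc5, which cuts on the 3′ side, had 0.18, -0.02, 0.03 and 0.00 (limma adjusted p = 0.661), and Ercc4, which cuts on the 5′ side, had -0.21, 0.21, -0.08 and -0.06 (limma adjusted p = 0.798). Ercc1, the partner of Ercc4, had -0.62 and -0.41 in mice 1 and 2 but 0.11 and 0.02 in mice 3 and 4 (mean -0.23 ± 0.35, SD, n = 4; limma adjusted p = 0.313). Rad23b, which stabilises the lesion sensor Xpc, had 0.24, 0.10 and -0.03 in mice 1, 2 and 4 (limma adjusted p = 0.487). Xpa, which checks the lesion, and Ercc2, the other TFIIH helicase, had values in mice 1 and 2 only. These were 0.46 and 0.16 for Xpa and 0.16 and 0.25 for Ercc2.

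Base excision repair had 12 listed genes and 9 tested, 1 past limma on each side of 0 and 3 on each side at an unadjusted p under 0.05. Among the glycosylases, which remove the base, Ogg1 acts on oxidised guanine and had values of -0.94, -0.44, -0.49 and -0.34. Its mean was -0.55 ± 0.26 (SD, n = 4; limma adjusted p = 0.0351), and mouse 1 lay apart from the other mice, which ran from -0.49 to -0.34. Mutyh, which removes adenine paired with oxidised guanine, had 0.01, -0.24, 0.03 and -0.12 (limma adjusted p = 0.498). Tdg, which acts on thymine and modified cytosine, had 0.13 and 0.17 in mice 1 and 2 and 0.90 and 0.77 in mice 3 and 4 (mean 0.49 ± 0.40, SD, n = 4). It lay above 0 in all 4 mice and did not pass (limma adjusted p = 0.0933). Nthl1, a glycosylase for oxidised pyrimidines, had 0.19, -0.13 and 0.30 in mice 1, 2 and 4 (limma adjusted p = 0.524).

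At the later steps, where the strand break is bound, filled and sealed, 1 of 5 tested genes passed, above 0. Parp2, a sensor that marks breaks with poly(ADP-ribose), had values of 0.34, 0.23, 0.51 and 0.44 (mean 0.38 ± 0.12, SD, n = 4; limma adjusted p = 0.0313). Parp1, the more abundant enzyme of this kind, had 0.13, 0.09, 0.36 and 0.24 (mean 0.21 ± 0.12, SD, n = 4), above 0 in all 4 mice but not past the test (limma adjusted p = 0.123). Polb, the polymerase that fills the gap, had -0.39, -0.21, -0.17 and -0.45 (mean -0.30 ± 0.14, SD, n = 4; limma adjusted p = 0.0563). Xrcc1, the scaffold that Parp enzymes recruit, had -0.15, -0.15, -0.52 and -0.27 (mean -0.27 ± 0.17, SD, n = 4; limma adjusted p = 0.0938). Lig3, the ligase bound to Xrcc1, had -0.05, -0.18 and -0.11 in mice 2 to 4 (limma adjusted p = 0.379). All 5 had 1 sign in every mouse measured, beside 46.7% of all genes, and of the 5 only Parp2 passed, a call that was lost in every fit without a mouse and with the pairs as a block.

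Of the remaining base excision genes, Apex1, the endonuclease that cuts at the site of the lost base, had 0.17 and -0.16 in mice 1 and 2. Aptx, which cleans blocked 5′ ends, had 1 value, 0.11 in mouse 2. Ung, the uracil glycosylase, had a spot with 0 values.

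Mismatch repair had 3 listed genes, all tested, and 0 passed limma, with 1 at an unadjusted p under 0.05. Msh6, which recognises the mismatch, had 0.13, 0.15, 0.86 and 0.40 (mean 0.38 ± 0.34, SD, n = 4; limma adjusted p = 0.120), and its positive mean was drawn up by mouse 3. Msh3, which takes the place of Msh6 at larger loops, had 0.13, 0.00, -0.02 and 0.11 (limma adjusted p = 0.583). Pms2, which nicks the strand to be corrected, had -0.07, -0.05, -0.20 and -0.28 (mean -0.15 ± 0.11, SD, n = 4; limma adjusted p = 0.216).

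Set side by side, the 4 pathways had medians near 0. The median of the gene means was 0.11 for double-strand break repair, 0.01 for nucleotide excision, -0.08 for base excision and 0.06 for mismatch repair, beside 0.0015 for all genes tested. Per mouse, the medians were 0.05, 0.13, 0.02 and 0.03 for double-strand break repair and -0.02, 0.04, 0.03 and -0.01 for nucleotide excision. They were 0.07, -0.13, -0.07 and -0.11 for base excision and 0.13, 0.00, -0.02 and 0.11 for mismatch repair. The ranges over the 4 mice overlapped for every pair of these pathways, but this does not compare them within a mouse. Within mice, the mismatch median lay above that of base excision in all 4, over 3 tested mismatch genes. No other pair of pathways kept 1 order in all 4 mice. The genes behind a median also differ by mouse, since Chek2 had no value in mouse 2 and Rad50 and Xrcc6 none in mouse 4. Single gene means ran from -0.97 to 0.26 in nucleotide excision and from -0.55 to 0.49 in base excision. Medians over several genes vary less than single genes in most groupings, so this wider spread does not show whether the pathways separate. The double-strand break median was 0.04 without mouse 2 and -0.05 over the 2 genes with 4 values, and that of nucleotide excision was -0.02 without mouse 2. No test was made of these medians, since the members were chosen with earlier results of these data known.

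**Figure D4:**
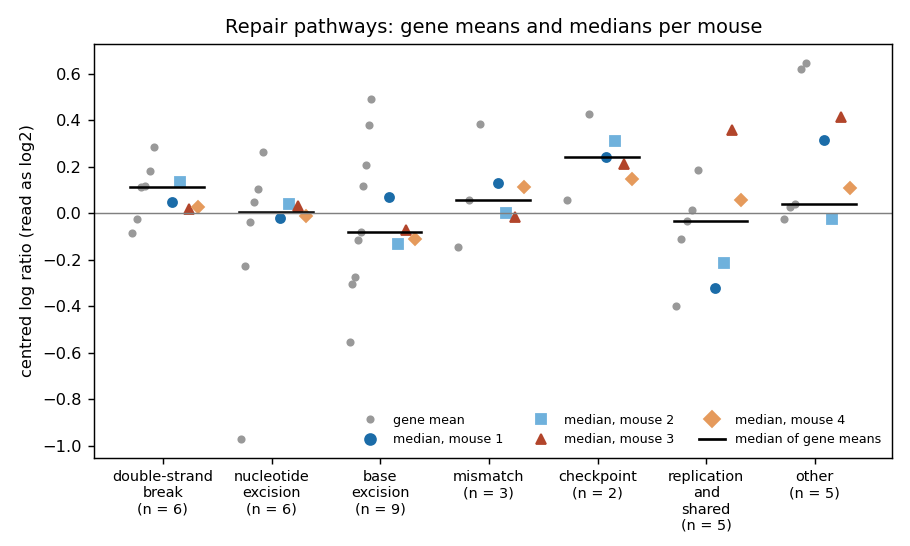
Means of the tested genes of each pathway (grey points), the median over those genes in each mouse (coloured symbols) and the median of the gene means (black line), on a centred log ratio axis read as log2. Pathway medians lie between -0.08 and 0.11 for the 4 repair routes, while gene means spread from -0.97 to 0.49.

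Checkpoint genes, which hold the cell cycle while damage persists, had 5 listed and 2 tested members, 1 of them past limma. Rad9a, a part of the ring clamp that is loaded at damage, had 0.42, 0.49 and 0.37 in mice 1, 3 and 4 (mean 0.42 ± 0.06, SD, n = 3; limma adjusted p = 0.0376). Rad1, a partner in the same clamp, had 0.06, 0.31, -0.07 and -0.08 (limma adjusted p = 0.699). In the 3 mice with both values, the difference from the pool was larger for Rad9a. The kinases Atr and Chek1 and the clamp loader Rad17 had spots with 0 values.

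Genes shared with DNA replication had 7 listed and 5 tested members, 1 below 0 and 0 above past limma. Rpa1, the large subunit of the protein that coats single-stranded DNA, had -0.32, -0.68, -0.29 and -0.29 (mean -0.40 ± 0.19, SD, n = 4; limma adjusted p = 0.0454). Mouse 2 was the farthest from 0 and the other mice lay close together. Rpa2, the middle subunit, went the other way at 0.09, 0.13, 0.52 and 0.00 and did not pass (limma adjusted p = 0.266). No spot carried the symbol Rpa3. Lig1, the ligase that joins replicated fragments, had -0.42 and -0.14 in mice 1 and 2 and was not tested.

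The remaining members bypass, reverse or accompany damage. Rev1, a polymerase scaffold for copying past lesions, had -0.07, -0.03, 0.26 and -0.01 (limma adjusted p = 0.774). Rad18, which marks Pcna for bypass, had 0.10, -0.08 and -0.09 in mice 1, 2 and 4 (limma adjusted p = 0.878). Mgmt, which takes alkyl groups off guanine, had -0.05, 0.02 and 0.11 in mice 2 to 4 (limma adjusted p = 0.852). All 3 lay near 0.

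Several members split the mice into 1 and 2 against 3 and 4, a pattern noticed in the data for which the labels give no grouping. Of the 26 members with 4 values, both of mice 3 and 4 lay above both of mice 1 and 2 for 11 (42.3%) and below for 4 (15.4%), beside 31.9% and 22.5% of the 6057 such genes in all. Atm is among the 4 by the average of its spots, but not by its spot with a value in every mouse. Fen1, the nuclease that trims flaps in replication and repair, had -0.54 and -0.49 in mice 1 and 2 and 0.54 and 0.05 in mice 3 and 4. Pole, a replicative polymerase, had -0.33 and -0.21 against 0.36 and 0.24, and Pold1, the catalytic subunit of another, had -0.16 and -0.14 against -0.02 and 0.18. None of the 3 passed limma (adjusted p = 0.734, 0.952 and 0.816), since their mice lay on both sides of 0. Ercc1, Tdg and Msh6 showed the same order of the pairs. Pcna, the sliding clamp of replication, which is no listed member and was named after its values were seen, had -0.26 and -0.57 against 1.68 and 1.12.

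**Figure D5:**
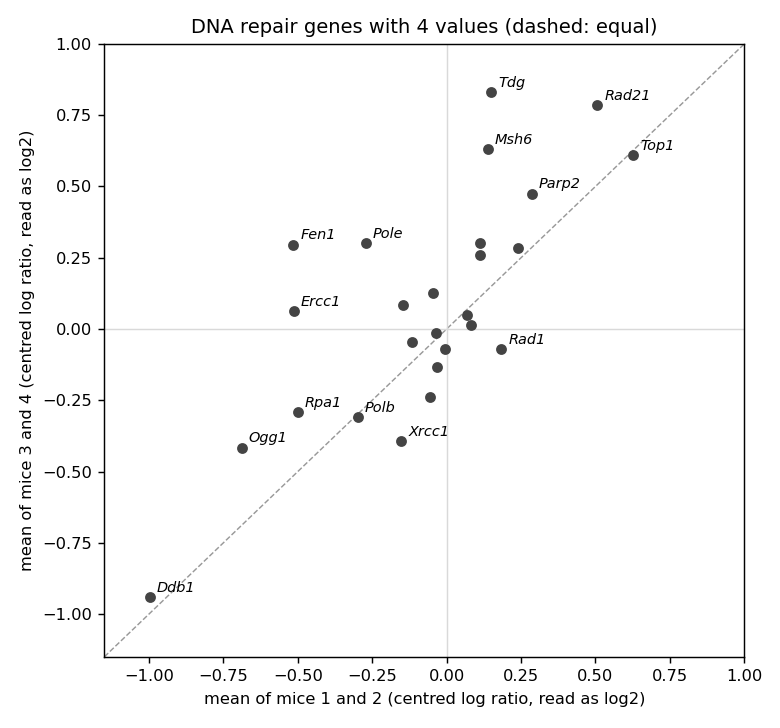
Mean centred log ratio of mice 3 and 4 (vertical axis) against that of mice 1 and 2 (horizontal axis), both read as log2, for the 26 members with 4 values, with equal values on the dashed line. Fen1, Pole, Ercc1, Tdg and Msh6 lie above the line, while Top1, Polb and Ddb1 lie close to it.

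Lists beside the members showed this split too. For 26 tested genes of proliferating cells, the medians were -0.32 and -0.39 in mice 1 and 2 and 0.03 and -0.03 in mice 3 and 4, and 13 of its 19 genes with 4 values had mice 3 and 4 above mice 1 and 2. The same held for 11 of 17 p53 target genes and 21 of 49 other repair genes, beside 31.9% of all genes. The reverse order held for 3, 2 and 9 genes of these lists, beside 22.5% of all genes. Of the 26 genes of proliferating cells, 0 passed limma, beside 12.5% of all genes. At an unadjusted limma p under 0.05 there were 1 above and 7 below 0. Both sides together, this share was near the 31.8% of all genes. By sign the list leaned to below 0, with 21 means below and 5 above. Its median was -0.16, beside 0.0015 for all genes tested. The part of proliferating cells or p53 targets in the values of Fen1, Pole and Pold1 was not tested.

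Other repair genes, from a list of 134 symbols that includes H2ax, described above, were tested for 69. Of these, 5 passed limma above 0 and 0 below, beside 7.69% and 4.81% of all genes, so the share above 0 was near that of all genes. At an unadjusted p under 0.05 there were 18 above and 11 below 0, H2ax among the latter, beside 31.8% of all genes on either side, and the median mean was 0.01. The 5 are named because they passed. Hmgb1, an abundant chromatin protein that also takes part in base excision, had 0.98, 1.16, 0.49 and 0.34 (mean 0.74 ± 0.39, SD, n = 4). Rnf8, a ubiquitin ligase that marks chromatin at breaks, had 0.50, 0.45, 1.08 and 0.74 (mean 0.69 ± 0.29, SD, n = 4). Rbx1, the ring subunit of the Cul4 ligase to which Ddb1 belongs, had 0.42, 0.49, 1.04 and 0.72 (mean 0.67 ± 0.28, SD, n = 4), on the other side of 0 from Ddb1. Pole4, a small subunit of the polymerase of Pole, had 0.51, 0.37, 0.44 and 0.41, and Topbp1, an activator of Atr, had 0.44, 0.19, 0.35 and 0.40. Limma adjusted p of the 5 lay between 0.0168 and 0.0371. Without mouse 1, 3 or 4 none of the 5 passed limma, and without mouse 2 all but Hmgb1 and Topbp1 did.

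Among p53 targets, the genes that the damage response switches on in many cells, 19 were tested, 1 above and 4 below 0 past limma. Over all genes tested, 7.69% passed above and 4.81% below 0. At an unadjusted limma p under 0.05 the p53 list had 4 above and 5 below 0, beside 31.8% of all genes on both sides together. Its means lay above 0 for 6 genes and below 0 for 13. Cdkn1a, an inhibitor of the cell cycle, had -1.11, -0.98, -0.80 and -0.56 and lay on the same side of 0 as Ddb1, Ogg1 and Rpa1. It passed limma whichever mouse was left out (adjusted p from 0.0287 to 0.0407). The others were Ccng1, Gadd45g and Ei24 below 0 and Btg2 above it. With 3 mice, Ccng1 passed only without mouse 4 and Btg2 only without mouse 2, and Gadd45g and Ei24 in 0 of 4 fits, at limma adjusted p up to 0.105. With the pairs as a block, Cdkn1a and Gadd45g passed limma and Ccng1, Btg2 and Ei24 did not (adjusted p from 0.0562 to 0.0834), and Ei24 was lost without centring too (0.0524). With eBayes trend and robust, all 5 missed the threshold, Cdkn1a included (limma adjusted p from 0.0752 to 0.0880). Polk and Ddb2 stand both in this list and among the other repair genes.

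Markers of the tissues a lung sample can hold were read beside the members. The shares of all genes past limma were 7.69% above and 4.81% below 0. Of 20 lung epithelial genes 17 were tested, 4 above and 1 below 0 past limma, with a median of 0.22. Of 24 tested striated muscle genes 7 passed below 0 and 0 above, with medians of -2.36, -0.48, -0.47 and -0.81 in mice 1 to 4. Of 11 fat cell genes 4 passed below and 0 above, with medians of -0.52, -0.01, -0.60 and -0.43. Macrophage genes (9 tested) had 2 above and 1 below, neutrophil genes (6 tested) 0 above and 2 below, and lymphocyte genes (15 tested) 1 on each side. Mouse 1, the lowest for muscle, was also the lowest for Ogg1, whereas Ddb1 was lowest in mouse 2. The part of other tissues in these values was not tested.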

How the data were processed

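The authors deposited 1 log ratio per spot and array, read here as log2 from the range of the values. No source used here states the scanner, dyes, background correction, normalization or rule for empty spots, and each can shift a ratio. No other per-sample column was present (0 columns). Spots were named through the platform's annotation, and the gene IDs of the 51 listed members with a spot all matched the same symbol in a RefSeq gene table. Each array was centred on its median and spots of 1 symbol were averaged. Genes with at least 3 values were fitted with limma 3.58.1 in R 4.3.3 (lmFit with an intercept, eBayes, two-sided test against 0, Benjamini-Hochberg over all genes). This leaves out the spread between control mice. Nothing says how the mice were housed or arrays run, so p-values measure the spread between these 4 arrays. The fit was tested on simulated data.

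Members, pathway and marker lists and the mouse pairs were chosen with earlier results of these data known. By the rule for named genes, all members are named, with values for those past the test, and genes of the other repair and p53 lists where they passed. Values of further members are given to account for all of them. Alternatives were no centring, a common spread, quantile normalization, other minimum numbers of arrays, medians of spots, complete spots, a trended robust prior, the pairs as a block, an exact sign-flip test and leaving out each mouse.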

Additional observations from a re-analysis of the deposited data

Results flagged for a closer look

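Among 42 results with 4 mice, 3 had a mouse set apart from the others by more than Dixon's limit, which chance alone gives for about 1 in 20. For Ercc3, mouse 2 at 0.186 lay below the other mice, which ran from 0.28 to 0.29. For Rpa1, mouse 2 at -0.682 lay below the others, from -0.32 to -0.29. For Rev1, mouse 3 at 0.264 lay above the others, from -0.07 to -0.01.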

How the results depend on the processing

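The counts of 5 members above and 3 below 0 stayed within 1.5 times of these values without centring, with a common spread, quantile normalization, 4 or at least 2 values per gene, medians of spots and complete spots. With the pairs as a random block they were 2 and 1, and with a trended robust prior 0 and 0. Leaving out 1 mouse gave 1 to 3 above and 0 to 1 below. The count of 5 other repair genes above 0 became 3 with the pairs as a block, 0 with the trended robust prior and 0 to 4 without 1 mouse. The 4, without mouse 2, were Rnf8, Rbx1 and Pole4 and a gene that is not among the 5. The count of 0 other repair genes below 0 became 1 with quantile normalization and 2 over complete spots. The double-strand break median of 0.11 became -0.0538 with 4 values per gene, 0.0430 with at least 2, -0.0386 over complete spots, and 0.0432 to 0.163 without 1 mouse. That of nucleotide excision, 0.01, became -0.0378 with 4 values, 0.0752 with at least 2, -0.0378 over complete spots, and -0.0248 to 0.0170 without 1 mouse. In the settings by number of values the genes entering the median differ by construction, and for the other changes the cause was not tested. Base excision and mismatch medians, -0.0798 and 0.0580, moved by less than the spread between mice in every setting run, but without 1 mouse they ran from -0.108 to -0.0277 (the latter without mouse 2) and from 0.0327 (without mouse 1) to 0.0823. No tested member past the test changed side. The exact sign-flip test over mice cannot go below a two-sided p of 0.125 with 4 values, so no gene can pass it. No paired analysis was possible because the arrays form 1 group. Spot signal is not part of the table, so how far dim spots limit these values is unknown.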

Other observations

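Genes that make or remove ADP-ribose marks at breaks lay on different sides of 0. Beside Parp2 and Parp1 above 0, Parp3, a relative of both, had 0.40, 0.19, 0.11 and 0.16 (limma adjusted p = 0.118). Parg, the enzyme that removes the polymer, had -0.14, -0.36, -1.32 and -0.83 (mean -0.66 ± 0.52, SD, n = 4; limma adjusted p = 0.0818) and was farther from 0 in mice 3 and 4. Of these 4 genes only Parp2 passed the test, and Parp3 and Parg were named after their values were seen.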
